A study of Mus musculus with 60 samples.

Results

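Interferon-stimulated genes were followed through 3 brain regions of PON2-deficient and wild-type mice by RNA sequencing of 60 libraries. The members were 9 genes chosen by name, Irf7, Ifit1, Ifit3, Oasl2, Isg15, Usp18, Bst2, Rtp4 and Ifi27, out of 20423 genes in the count table, and each of the 9 names matched 1 row. PON2 (paraoxonase 2) is a lactonase of the mitochondria and other membranes that limits oxidative stress. PON2-deficient mice were homozygous for the deficiency, and wild-type mice carried neither affected copy. Both came as littermates from crosses of heterozygotes on a C57BL/6J background. Cortex, striatum and cerebellum were taken from females and males at 3 to 4 months of age, which gave 12 groups of region, sex and genotype with 5 libraries each. Mice of every group had finished behavioural testing and were kept free of specific pathogens, and the labels name no drug or other agent. They also name no driver that would restrict the deficiency to a cell type. The tissue was pulverised whole, so each value is a mean over all cells of a region, in which fewer cells of a type and less RNA per cell cannot be told apart. The series asked whether loss of PON2 alters transcripts differently from region to region.

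Type I interferons are secreted when a cell senses viral or misplaced nucleic acid. They bind the receptor formed by Ifnar1 and Ifnar2, and kinases at the receptor then activate Stat2, which acts in the nucleus with Irf9 to switch on interferon-stimulated genes. In healthy brain these genes are expressed at a low level by glia, neurons and vascular cells. Among the members, Irf7 is the transcription factor that amplifies interferon production. Ifit1 and Ifit3 belong to a family that binds viral RNA, Oasl2 is a relative of the oligoadenylate synthetases, and Bst2 (tetherin) holds budding virus at the cell surface. Isg15 is a ubiquitin-like protein that is joined to other proteins, and Usp18 removes it again and also dampens signalling at the interferon receptor. Rtp4 is a chaperone of receptors at the cell surface, and Ifi27 is a small hydrophobic membrane protein.

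Irf9 and related factors recognise a DNA element with repeated GAAA cores. Below are the stretches of 4 member promoters that hold such a repeat, because the values of these genes from library to library are compared later. The search was for GAAANNGAAA on both strands, where N is any base, in the 250 bases before each start site of the RefSeq promoters (build GRCm38.p6). Capitals mark the matches, which read TTTCNNTTTC where they lie on the opposite strand, and overlapping matches run together. Each stretch is printed 5′ to 3′ along the gene.
Ifit1, chr19:34640765-34640833, plus strand: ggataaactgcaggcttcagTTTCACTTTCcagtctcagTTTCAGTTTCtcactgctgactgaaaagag
Ifit3, chr19:34583353-34583436, plus strand: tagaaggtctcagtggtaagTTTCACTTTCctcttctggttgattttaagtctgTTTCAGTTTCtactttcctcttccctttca
Isg15, chr4:156200855-156200916, minus strand: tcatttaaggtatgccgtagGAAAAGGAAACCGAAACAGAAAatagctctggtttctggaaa
Bst2, chr8:71537567-71537622, minus strand: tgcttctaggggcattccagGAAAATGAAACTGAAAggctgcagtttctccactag
Ifit1 and Ifit3 each held 2 separate matches, Isg15 held 3 that overlap, and Bst2 held 2 that overlap. The windows of Irf7 and Oasl2 held none of these letters, and Ifi27, Rtp4 and Usp18 were not matched to the table. The motif was in 4 of 6 member windows and in 2.98% of all 32851 windows. A match is a description of the letters and not of binding.

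By the GENCODE M21 annotation (GRCm38), all 9 members are protein-coding genes. Ifit1 (chr19:34640871-34650009, plus strand) and Ifit3 (chr19:34583531-34588731, plus strand) lie in 1 cluster on chromosome 19 with Ifit3b (chr19:34607970-34613401, plus strand). The others are Irf7 (chr7:141262706-141266481, minus), Oasl2 (chr5:114896936-114912234, plus), Isg15 (chr4:156199424-156200818, minus), Usp18 (chr6:121245906-121270917, plus), Bst2 (chr8:71534255-71537456, minus), Rtp4 (chr16:23520291-23614222, plus) and Ifi27 (chr12:103434211-103440239, plus). Ifit3 and Ifit3b are near-identical copies, and estimated counts can be split between them, so their sum was also tested.

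Library totals lay between 26.1 M and 28.1 M counts. Pon2 itself separated the genotypes in every region: the median was 56.5 CPM (counts per M counts of the scaled library) against 3.28 with the deficiency in cortex, 51.0 against 3.70 in striatum, and 41.4 against 0.633 in cerebellum, with no overlap. Some Pon2 transcript was thus left in every deficient library. Summed cortical, striatal and cerebellar neuron markers were each highest in the labelled region. Male 5 of the PON2-deficient striatum group had a mean precision weight 0.0527 times the median of its region. The Bst2 and Ifi27 differences and the spread counts in striatum are given with and without it. The correlations between members in striatum include it and were not repeated without it alone. The labels do not say whether libraries of different regions came from the same mice. P-values set a difference against the spread between libraries of a group. Those between regions treat all libraries as independent, which would not hold if regions shared mice. A fit with a replicate block is given at the end.

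Every member was detected in every library, with a lowest count of 10.4. Between genes, levels were compared as CPM per kilobase of exon in wild-type libraries (mean ± SD, n = 10). Ifi27 led in each region, at 15.6 ± 1.55 in cortex, 14.8 ± 1.44 in striatum and 15.3 ± 2.46 in cerebellum. It stood at the 84.8th percentile of all genes in cortex. Ifit3 was next, at 4.32 ± 0.502 in cortex, 4.10 ± 0.723 in striatum and 7.27 ± 1.23 in cerebellum. Bst2 and Isg15 followed in each region, at 3.32 ± 0.348 and 2.35 ± 0.401 in cortex, and the spreads of Isg15 and Bst2 overlapped in striatum (2.25 ± 0.572 and 2.77 ± 0.450). The remaining 5 members lay close together and between 0.311 for Usp18 in striatum and 1.02 for Ifit1 in cerebellum. Usp18 was the lowest member per kilobase in all 3 regions, at the 18.6th percentile of genes in cortex.

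The cerebellum had the highest level of most members. Of the 9 members, 6 were called higher in cerebellum than in cortex and none lower (edgeR quasi-likelihood F test over 60 libraries, Benjamini-Hochberg adjusted p under 0.05 over 20387 genes), where 40.1% of all genes were called higher and 79.6% in either direction. They were Ifit3, Usp18, Ifit1, Irf7, Bst2 and Oasl2. Against striatum, 7 of 9 were called higher in cerebellum, where 39.7% of all genes were called higher and 79.8% in either direction. Differences between regions were thus common. Over both genotypes the members' share of higher calls was above that of all genes, which did not hold for cerebellum against cortex in wild-type libraries alone.

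Ifit3 showed the widest step. Over both genotypes its lowest, median and highest CPM were 5.28, 7.19 and 11.04 in cortex, 4.72, 6.57 and 9.05 in striatum, and 6.30, 12.5 and 27.7 in cerebellum. In wild-type libraries alone, the lowest cerebellum value, 10.4 CPM, lay above the highest cortex value, 9.19 CPM, so these groups did not overlap. The log2 difference over both genotypes was 0.95 (SE 0.134, adjusted p = 7.53e-09) against cortex and 1.07 (SE 0.135, adjusted p = 3.80e-10) against striatum. Usp18 was 0.72 (SE 0.173, adjusted p = 0.000165) higher on the log2 scale than in cortex, and its median rose from 0.887 to 1.36 CPM. Ifit1 differed by a log2 value of 0.65 (SE 0.143, adjusted p = 5.52e-05), from a median of 2.08 CPM in cortex to 2.61 in cerebellum. Irf7 (log2 0.53, SE 0.140, adjusted p = 0.000548), Bst2 (log2 0.46, SE 0.104, adjusted p = 8.33e-05) and Oasl2 (log2 0.44, SE 0.152, adjusted p = 0.00753) completed the set.

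Ifi27 was level across regions. Its median was 22.2 CPM in cortex, 22.1 in striatum and 22.8 in cerebellum, and its log2 difference between cerebellum and cortex was 0.01 (SE 0.0722, adjusted p = 0.897). Isg15 missed the threshold against cortex (log2 0.15, SE 0.126, adjusted p = 0.262) and against striatum (log2 0.25, SE 0.126, adjusted p = 0.0668). Rtp4 was the member with a difference between cortex and striatum. It was lower in striatum by 0.29 (log2 -0.29, SE 0.105, adjusted p = 0.0148), 1 of 9 members called there, where 28.2% of all genes were called lower and 57% in either direction. Rtp4 was also called higher in cerebellum than in striatum (log2 0.24, SE 0.105, adjusted p = 0.0324), a call that ended with the deposited voom values (adjusted p = 0.0633) and without any of 9 single libraries.

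The step was also read within each genotype. In the 30 wild-type libraries, 3 of 9 members were called higher in cerebellum than in cortex (36% of all genes were): Ifit3 (log2 0.75, SE 0.189, adjusted p = 0.000438), Usp18 (log2 0.61, SE 0.247, adjusted p = 0.0253) and Bst2 (log2 0.37, SE 0.146, adjusted p = 0.0201). In PON2-deficient libraries 6 of 9 were called (36.2% of all genes), with Ifit3 at log2 1.15, Ifit1 at 1.01 and Irf7 at 0.78. Ifit1 and Irf7 were at log2 0.29 (SE 0.203) and 0.28 (SE 0.199) in wild-type. The difference of the genotype effect between cerebellum and cortex was called for no member in the edgeR test, at 0.72 for Ifit1 (SE 0.286, adjusted p = 1.0) and 0.50 for Irf7 (SE 0.280, adjusted p = 1.0), where 0.0147% of all genes were called. Against striatum it was 0.77 for Irf7 (SE 0.279, adjusted p = 0.725), where 0.00981% of all genes were called, and between striatum and cortex 0% were. Cerebellum against striatum gave 5 called members in wild-type and 7 in PON2-deficient libraries, where 36.3% and 35.6% of all genes were called higher. Striatum against cortex gave none in either, where 43.3% and 47.4% of all genes were called in either direction. These contrasts by genotype were added after the data had been seen.

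**Figure D1:**
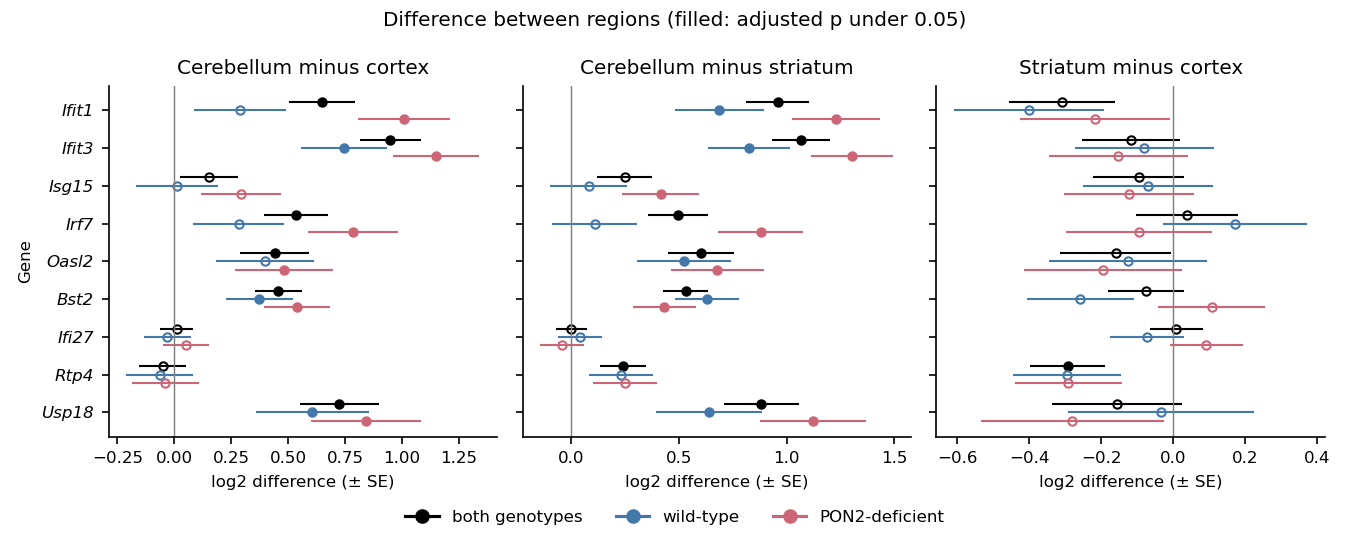
Log2 differences between regions (x axis, ± SE) for the 9 members (y axis), over both genotypes and in each genotype; filled points have an adjusted p under 0.05. Ifit3 has the largest cerebellar excess, 0.95 against cortex and 1.07 against striatum, and Ifi27 over both genotypes is at 0.01 and 0.00 in the same panels.

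Between genotypes, no member was called in any region, in either sex, for the difference between the sexes' genotype effects, or between males and females. Over both sexes, the edgeR test called 0.0316% of all genes for cortex, 0.0105% for striatum and 0.0321% for cerebellum, so 0 of 9 is near the background. In females alone it called 0.00527%, 0.00527% and 0.00534% of genes in the same order of regions, and in males alone 0.148%, 0.00527% and 0.016%. The sexes' genotype effects differed for 0% of genes in each region. At an unadjusted p under 0.05, 0 members were found in cortex and striatum, where 11.4% and 4.94% of all genes were, and 2 in cerebellum, Irf7 and Ifit1, where 11.1% of all genes were. DESeq2 called 0 of the 9 in these comparisons. Over both sexes it called more genes than edgeR in every region, as given at the end, so the edgeR shares are not its background.

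In cerebellum, the fitted genotype difference over both sexes was above 0 for 9 of 9 members, with a median log2 of 0.33 against 0.00 over all genes tested. Females alone also had 9 of 9 above 0. Males alone had 7, with Ifi27 (log2 -0.06) and Bst2 (log2 -0.03) below 0. These signs are not separate results, because the members rose and fell together in the same libraries, as described below. The 9 of 9 over both sexes depended on single libraries: Bst2 (log2 -0.03) and Ifi27 (log2 -0.02) were below 0 without PON2-deficient male 3, and Oasl2 (log2 -0.01) without PON2-deficient female 4. Oasl2 was also just below 0 with the deposited voom values. Males against females of cerebellum also had 9 of 9 fitted values above 0, with a median log2 of 0.19 and none called. Irf7 gives the values. In wild-type females it was 2.28, 2.54, 2.18, 2.28 and 2.00 CPM, and in wild-type males 4.21, 2.38, 2.59, 2.24 and 2.47 CPM. In PON2-deficient females it was 2.06, 1.69, 1.89, 5.76 and 4.30 CPM, and in PON2-deficient males 2.44, 5.47, 5.55, 5.31 and 1.76 CPM. In all, 5 PON2-deficient libraries lay above every wild-type library, 3 lay below every one, and the groups overlapped. The log2 difference was 0.52 (SE 0.238, unadjusted p = 0.0406, adjusted p = 0.424).

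Ifit1 had the largest fitted difference. Wild-type females had 3.04, 2.59, 3.07, 2.13 and 2.32 CPM, and wild-type males 4.51, 2.30, 2.81, 1.89 and 2.47 CPM. PON2-deficient females had 2.04, 1.79, 2.64, 6.40 and 4.44 CPM, and PON2-deficient males 1.98, 8.79, 6.77, 4.22 and 2.07 CPM. Of the PON2-deficient libraries, 3 lay above all wild-type libraries, 1 (female 2) lay below all of them, and the rest overlapped with them. The log2 difference was 0.58 (SE 0.274, unadjusted p = 0.0465, adjusted p = 0.441). With the deposited voom values and weights it was 0.30 for Ifit1 and 0.29 for Irf7, with adjusted p of 0.744 and 0.7099.

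Ifit3 lies in the same cluster as Ifit1. Wild-type females had 10.4, 10.7, 10.5, 11.97 and 14.8 CPM, and wild-type males 17.3, 13.3, 12.1, 12.8 and 13.0 CPM. PON2-deficient females had 7.96, 6.30, 8.38, 27.7 and 25.5 CPM, and PON2-deficient males 8.54, 24.8, 23.7, 17.1 and 8.86 CPM. Of the PON2-deficient libraries, 4 were above all 10 wild-type libraries and 5 were below all of them, leaving 1, male 4, inside the wild-type range. The log2 difference of means was 0.33 (SE 0.256, adjusted p = 0.700), and 0.29 (SE 0.254, adjusted p = 0.732) with Ifit3b added.

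Isg15 and its protease Usp18 come next. Isg15 had a mean of 1.80 ± 0.411 CPM (SD, n = 10) in wild-type cerebellum, against 2.25 ± 0.897 with the deficiency (log2 0.33, SE 0.207, adjusted p = 0.599). Usp18 was 1.36 ± 0.434 and 1.83 ± 0.975 CPM (log2 0.44, SE 0.272, adjusted p = 0.592). In Isg15, 5 PON2-deficient libraries lay above and 3 below the wild-type range, and in Usp18 4 lay above and none below. Oasl2 ran from 2.97 to 7.38 CPM in wild-type mice, against 2.15 to 8.19 with the deficiency, with a log2 difference of 0.15 (SE 0.242, adjusted p = 0.870). Bst2 (log2 0.08, SE 0.160), Rtp4 (log2 0.14, SE 0.166) and Ifi27 (log2 0.07, SE 0.116) were closest to 0.

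**Figure D2:**
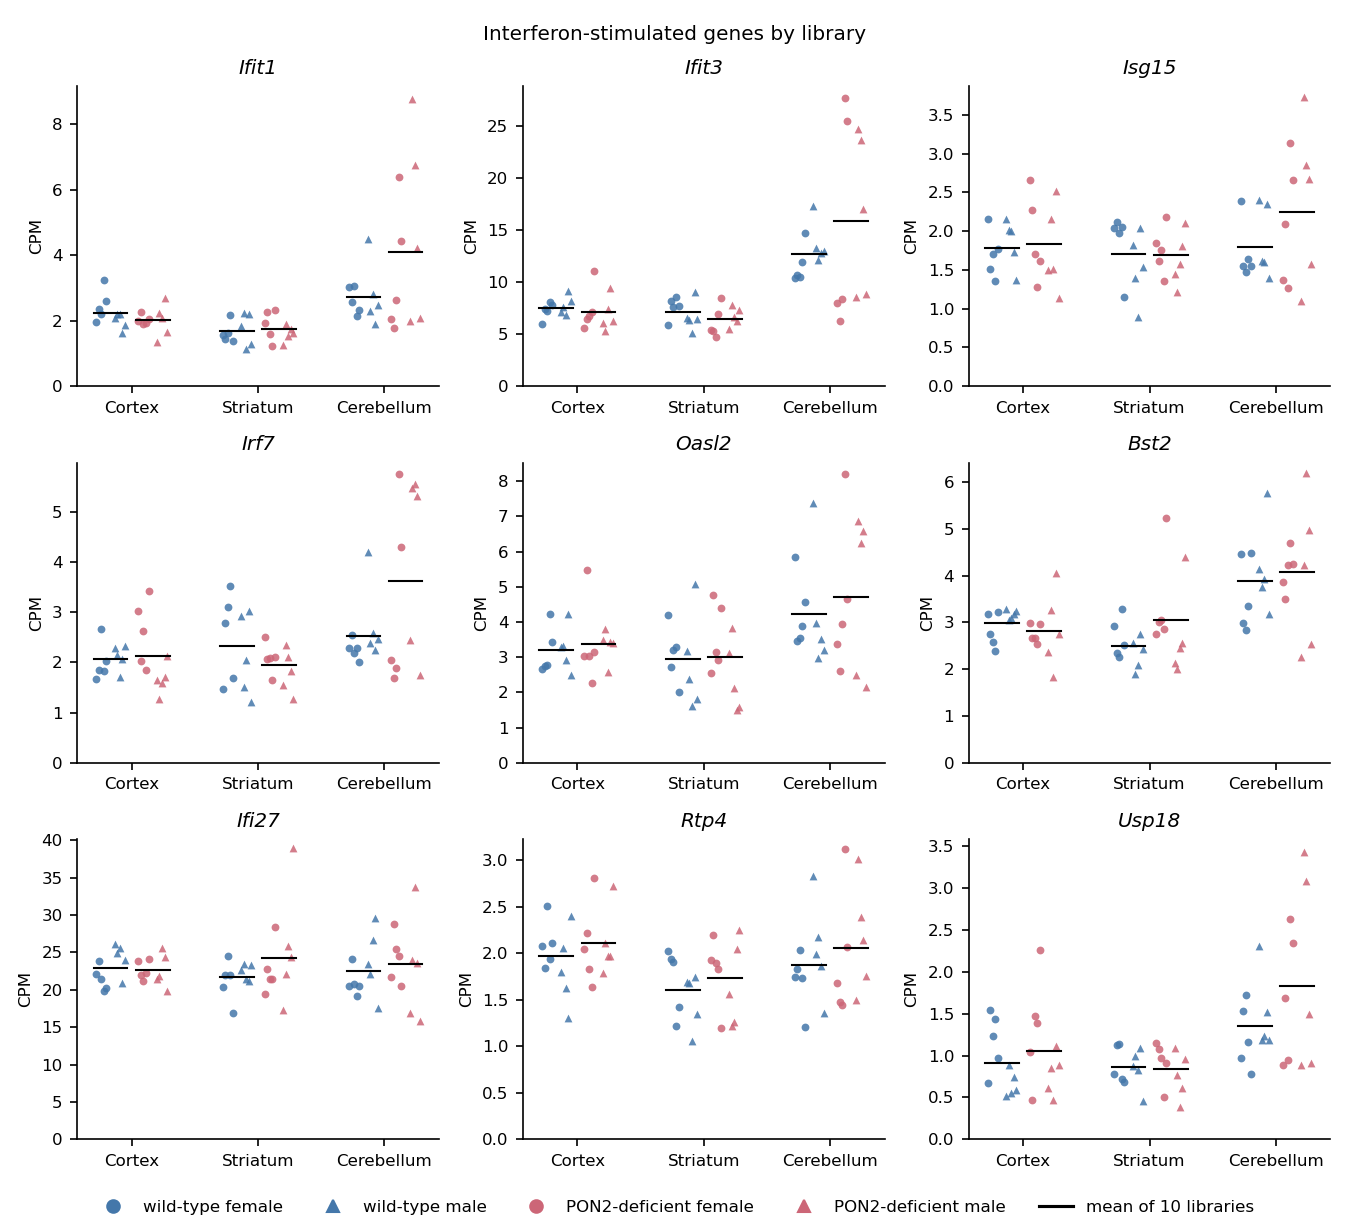
CPM (y axis, from 0) of each member in each of 60 libraries by region (x axis), genotype (colour) and sex (shape), with the mean of 10 libraries as a line. In cerebellum the PON2-deficient values of Ifit3 run from 6.30 to 27.7 CPM around a wild-type range of 10.4 to 17.3 CPM.

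Single libraries accounted for the top of the cerebellar range. PON2-deficient female 4 was the highest of 20 cerebellum libraries for 4 members and among the top 3 for 7. PON2-deficient male 2 was the highest for 3 members and among the top 3 for 7, and PON2-deficient male 3 was the highest for the other 2 and among the top 5 for 9. Female 5 was above the regional median for 8 members and male 4 for 9. The median log2 deviation of the members from their regional medians was 0.92 in female 4, 0.69 in female 5, 0.99 in male 2, 0.79 in male 3 and 0.45 in male 4.

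The other PON2-deficient cerebellum libraries were low. The same median deviation was -0.22 in female 1, -0.31 in female 2, -0.34 in female 3, -0.54 in male 1 and -0.49 in male 5. Male 1 was among the 3 lowest libraries for 6 members. Among wild-type libraries the range was from -0.21 in male 5 to 0.60 in male 1, and wild-type male 1 was the library of that genotype with all 9 members above the median.

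**Figure D3:**
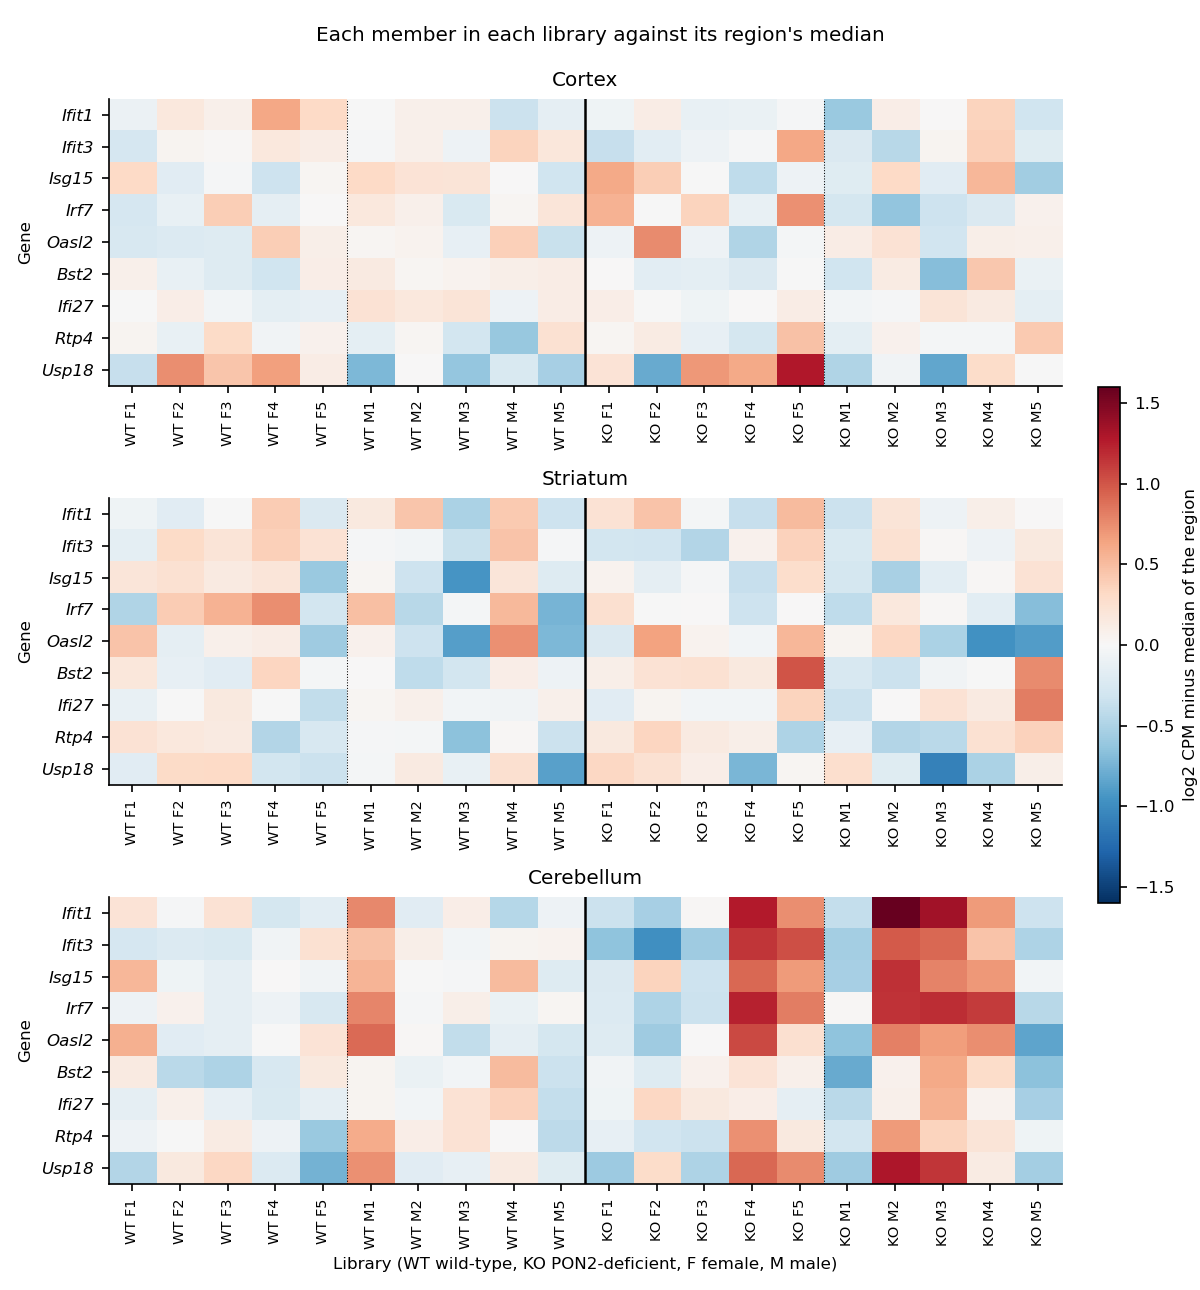
Log2 CPM of each member (rows) in each library (columns) minus the median of its region; red is above and blue below. In the cerebellum panel, PON2-deficient female 4 and 5 and male 2, 3 and 4 have median deviations of 0.45 to 0.99, and wild-type male 1 has 0.60.

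The spread was then compared as a quantity of its own, an analysis added after these values had been seen. For each gene, the absolute log2 deviation of a library from its group mean was scaled up for the size of the group. It was then fitted with limma and compared between genotypes. In cerebellum the SD of CPM in PON2-deficient libraries was 4.09 times that in wild-type for Ifit3, 3.35 times for Ifit1, 2.91 times for Irf7, 2.24 times for Usp18 and 2.18 times for Isg15. The ratio was 1.55 for Oasl2, 1.47 for Ifi27, 1.37 for Rtp4 and 1.30 for Bst2. None of the 9 passed the adjusted threshold, where 0.00534% of all genes were called with larger spread. Ifit3 had the third smallest p of 18710 genes (mean scaled deviation 0.17 in wild-type and 0.84 in PON2-deficient, limma adjusted p = 0.132), and Irf7 followed at adjusted p = 0.176. At an unadjusted p under 0.05, 6 members had larger spread in PON2-deficient libraries, where 4.31% of all genes did. These 6 are not separate results, because the members rose and fell together in the same libraries, as described below.

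This result moved with single libraries and with the centre used. Ifit3 passed the threshold when any of 6 libraries was left out, with the smallest adjusted p (0.0199) without wild-type male 1. Without that library Irf7 passed as well (adjusted p = 0.0109). Over all genes, these 6 fits called 4 to 8 genes in either direction, against 2 with every library kept. With deviations taken from group medians, 2 members had an unadjusted p under 0.05 and the smallest adjusted p was 1.0. In cortex and striatum no member was called for spread either, with 0.0158% and 0% of genes called larger. In striatum the count over all genes went from 0 to between 644 and 797 when PON2-deficient male 1, 2, 3 or 4 was left out, and to 7 without male 5, with no member called in any of these.

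Members were compared from library to library. Each pair of members was correlated over the 20 libraries of a region after group means had been subtracted, which gave 36 pairs a region, with permutation tests of 100000 resamples within groups (2-sided, Benjamini-Hochberg over the pairs of all 3 regions). In cerebellum 36 of 36 pairs had r above 0, with a median r of 0.72 and a range of 0.24 to 0.91, and 24 pairs were called by Pearson's r and 18 by Spearman's rho. The share of called pairs among other genes was not computed, so these counts have no background beside them. Leaving out the 2 libraries farthest from the median of one gene gave a median r of 0.66. The closest pair was Ifit1 and Irf7 (Pearson's r = 0.91, permutation p = 9.00e-05, adjusted p = 0.00432, Spearman's rho = 0.89, permutation p = 0.000180, adjusted p = 0.00410, and r = 0.90 without 2 libraries). Ifi27 was loosest, with a median r of 0.38 with the other members, and Ifit3 with Ifi27 was the lowest pair (r = 0.24).

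The correlation was closer among PON2-deficient libraries, with a median r of 0.83 over 10 libraries, than among the 10 wild-type libraries, with a median r of 0.38 and 28 of 36 pairs above 0. This difference was not tested. Wild-type striatum was much like wild-type cerebellum, with a median r of 0.42 and 33 of 36 pairs above 0, while PON2-deficient striatum had 0.17. In cortex the medians were -0.12 in wild-type and 0.20 in PON2-deficient libraries. The 5 high and 5 low PON2-deficient libraries stand apart, and 5 libraries are too few to correlate within either set. Over both genotypes of striatum the median r was 0.31, with 28 of 36 pairs above 0 and 2 pairs called by Pearson's r, Isg15 with Bst2 and Isg15 with Ifi27, of which Spearman's rho called the first. In cortex over both genotypes it was 0.10, with 26 of 36 pairs above 0 and 1 pair called by Pearson's r, Irf7 with Rtp4, which Spearman's rho did not call. Without 2 libraries the medians were 0.18 in striatum and -0.01 in cortex, where 18 of 36 pairs were then above 0. All pairs share the depth and scaling of their library, and pairs of other genes were not counted in these regions either.

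**Figure D4:**
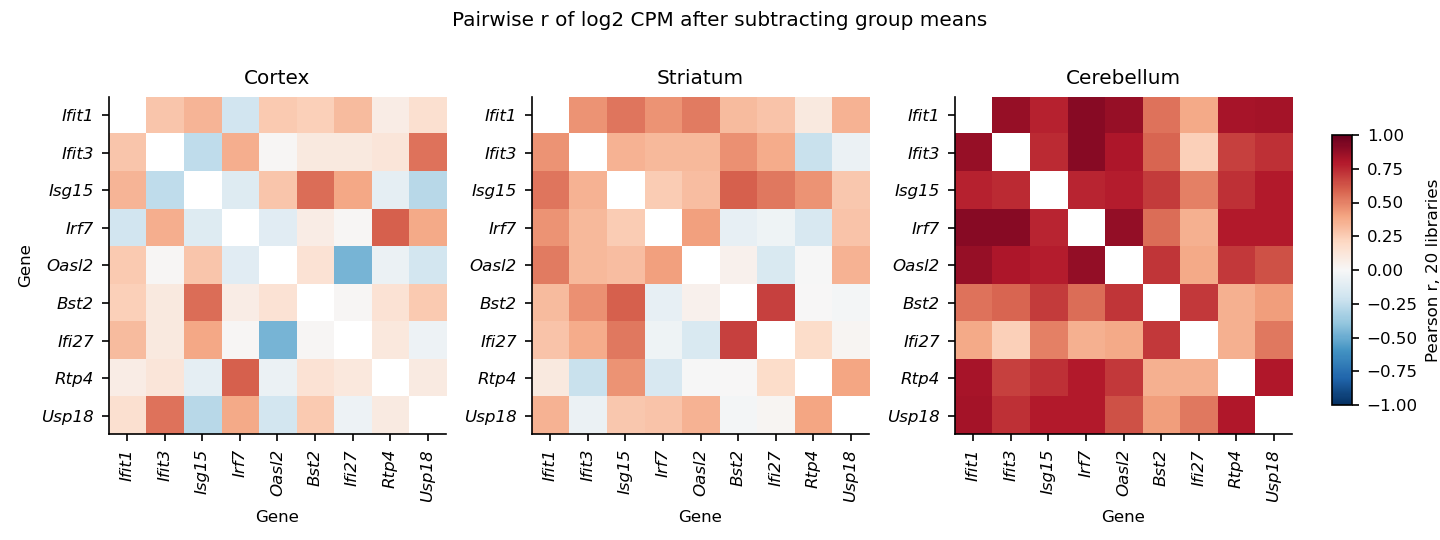
Pearson's r of log2 CPM between members (both axes) over the 20 libraries of each region after subtracting group means. The cerebellum panel is red throughout (median r 0.72), whereas the medians in striatum and cortex are 0.31 and 0.10.

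The other regions gave the following values. In cortex, 5 fitted genotype differences lay above 0 and 4 below, from log2 -0.14 for Ifit1 (SE 0.118, adjusted p = 0.688) to 0.20 for Usp18 (SE 0.230, adjusted p = 0.802). Mean Ifit3 was 7.55 ± 0.876 CPM (SD, n = 10) in wild-type cortex, against 7.14 ± 1.79 with the deficiency. PON2-deficient female 5 was the highest cortex library for 4 members, Ifit3 at 11.04 CPM, Irf7 at 3.42, Rtp4 at 2.81 and Usp18 at 2.26, while its other 5 members were not among the top 5.

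In striatum, 4 differences lay above 0 and 5 below. Mean Irf7 was 2.33 ± 0.833 CPM in wild-type striatum, against 1.95 ± 0.376 with the deficiency (log2 -0.25, SE 0.189, adjusted p = 0.995), with the larger SD in wild-type. Bst2 had the highest fitted value, log2 0.27 (SE 0.152, adjusted p = 0.995). It was 2.74, 3.01, 3.05, 2.85 and 5.23 CPM in PON2-deficient females and 2.12, 2.00, 2.46, 2.56 and 4.39 CPM in PON2-deficient males, against 1.91 to 3.28 CPM in wild-type. Only female 5 and male 5 exceeded the wild-type range, and without male 5 the log2 difference of Bst2 fell to 0.15 (SE 0.128, adjusted p = 0.765). For Ifi27, male 5 had 39.0 CPM against 16.8 to 24.6 CPM in wild-type, and leaving it out moved the log2 difference from 0.15 to 0.05.

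**Figure D5:**
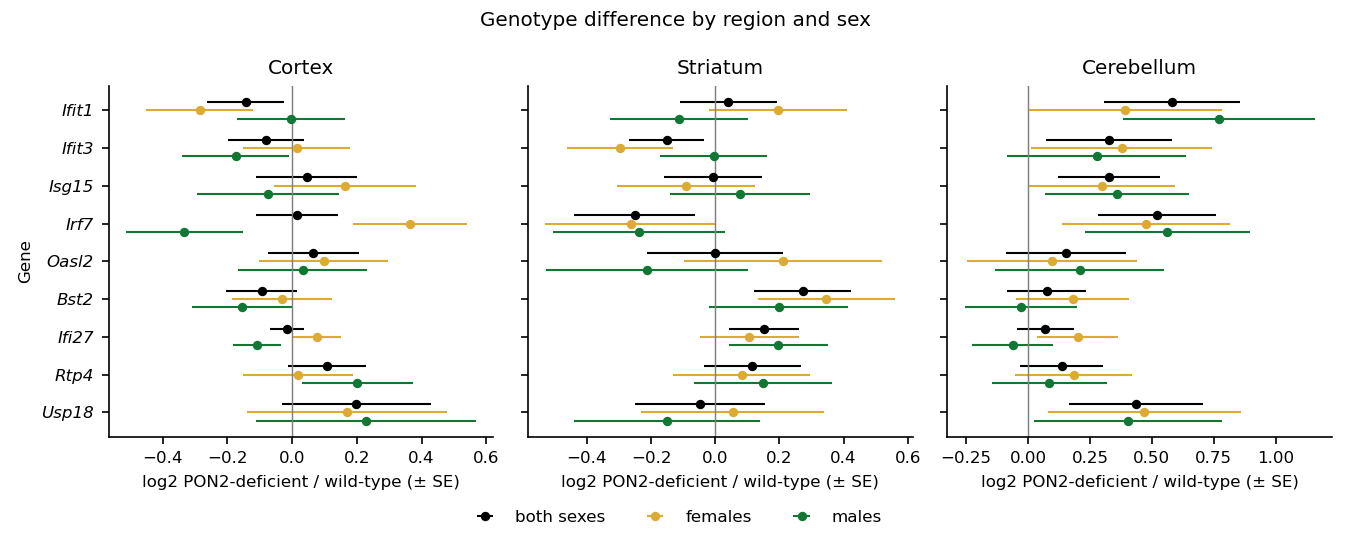
Log2 ratio of PON2-deficient to wild-type (x axis, ± SE) for each member (y axis) by region, over both sexes and in each sex. The cerebellum values over both sexes run from 0.07 for Ifi27 to 0.58 for Ifit1, and those in cortex and striatum lie on both sides of 0.

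The sexes were compared as well. In cerebellum the genotype difference of Irf7 was log2 0.48 in females (SE 0.340) and 0.56 in males (SE 0.333), and that of Ifit3 was 0.38 (SE 0.363) and 0.28 (SE 0.360), and both sexes held high and low PON2-deficient libraries. In cortex the fitted value of Irf7 was log2 0.37 in females (SE 0.176, adjusted p = 0.754) and -0.33 in males (SE 0.180, adjusted p = 0.418), neither called. The difference between these effects was -0.70 (SE 0.252, unadjusted p = 0.0114, adjusted p = 0.386), 1 of 9 members at an unadjusted p under 0.05, where 9.56% of genes were. Between males and females, 0 of 9 members were called in cortex, striatum or cerebellum, where 0.0896%, 0.105% and 0.118% of genes were. At an unadjusted p under 0.05, 2 of 9 were found in cortex, Usp18 and Irf7, where 10.5% of genes were. For Usp18 in cortex, females ranged from 0.475 to 2.26 CPM and males from 0.467 to 1.11 CPM, with overlap (males minus females log2 -0.79, SE 0.230, unadjusted p = 0.00263, adjusted p = 0.260).

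The wider pathway was read from lists of its genes. Of 10 interferon genes listed as ligands, none was in the table. No gene of the other lists was called between genotypes in any region: 0 of 16 receptor and signalling genes, 0 of 10 or 11 nucleic acid sensors, 0 of 9 negative regulators, 0 of 32 to 34 other interferon-stimulated genes and 0 of 10 antigen presentation genes. In cerebellum, Irf9, the DNA-binding partner of Stat2, had a mean of 13.2 ± 2.27 CPM (SD, n = 10) in wild-type mice, against 17.2 ± 2.91 with the deficiency (log2 0.39, SE 0.0945, adjusted p = 0.131). Nlrc5, the activator of class I antigen presentation genes, had a log2 difference of 1.04 (SE 0.280, adjusted p = 0.149) at 0.662 ± 0.217 and 1.37 ± 0.623 CPM. The other 9 of 10 antigen presentation genes had fitted differences below 0, and the median of the list was log2 -0.06. The lowest p of the other lists belonged to Mx2, a dynamin-like antiviral protein (log2 0.74, SE 0.291, adjusted p = 0.335), Tmem173, the adaptor STING (log2 -0.46, SE 0.162, adjusted p = 0.274), and Trex1, a DNA exonuclease (log2 0.14, SE 0.0585, adjusted p = 0.355).

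In cortex the lowest p of each list belonged to Mx1 (log2 -0.69, SE 0.210, adjusted p = 0.190), Stat2 (log2 0.15, SE 0.0485, adjusted p = 0.2201), Psmb10 (adjusted p = 0.276), Ptpn6 (adjusted p = 0.424) and Tbk1 (adjusted p = 0.569). In striatum, Ifngr2, Socs3, Mx2, Tap1 and Dhx58 led their lists with adjusted p from 0.907 to 0.995. Of the other interferon-stimulated genes, 24 of 34 had a fitted genotype difference above 0 in cerebellum (median log2 0.04), 11 of 33 in cortex (median log2 -0.03) and 11 of 32 in striatum (median log2 -0.03), none of them called. The deviation between libraries was larger with the deficiency for 27 of 34 in cerebellum (median difference 0.08 against -0.01 over all genes), 18 of 33 in cortex and 19 of 32 in striatum, none of them called. Of the receptor subunits in cerebellum, Ifnar1 had a mean of 41.4 ± 2.06 CPM in wild-type mice, against 40.3 ± 1.56 with the deficiency, and Ifnar2 had 19.6 ± 1.51 against 19.1 ± 2.01 CPM. Neither was called.

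Between regions, 6 of 16 receptor and signalling genes were called higher and 5 lower in cerebellum than in cortex, again a smaller share than the 79.6% of all genes. Stat2 was 22.8 ± 1.599 CPM in wild-type cortex and 81.7 ± 7.05 CPM in wild-type cerebellum, a log2 difference over both genotypes of 1.82 (SE 0.0562, adjusted p = 4.50e-35). Of the 34 other interferon-stimulated genes, 13 were called higher and 9 lower in cerebellum than in cortex, which is below the shares of all genes called higher (40.1%) and in either direction (79.6%). Those with the lowest p were lower there: Ly6e (log2 -0.94), Herc6 (log2 -2.15), Cmpk2 (log2 -0.50) and Ifit2 (log2 -0.88), another member of the Ifit family. Ifit2 was thus called in the opposite direction to Ifit1 and Ifit3.

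Genes outside the members were ranked by how closely their log2 CPM, with group means subtracted, followed the mean of the members over 60 libraries (17641 genes with at least 0.5 CPM). The 5 most alike were Ifit3b (r = 0.83), Irgm1 (r = 0.70), Gbp7 (r = 0.67), Lgals3bp (r = 0.65) and Igtp (r = 0.65). Irgm1, Igtp and Gbp7 are interferon-induced GTPases, and Lgals3bp is a secreted glycoprotein. In cerebellum, Ifit3b was 5.01 to 7.75 CPM in wild-type females, 7.34 to 11.01 CPM in wild-type males, 3.68 to 16.03 CPM in PON2-deficient females and 4.57 to 14.0 CPM in PON2-deficient males. Its high PON2-deficient libraries were female 4 and 5 and male 2, 3 and 4, as for the members. That likeness was built in, because these genes were picked for following the members in the same libraries. Ifit3b can also share estimated counts with Ifit3. Wild-type male 1 had 11.01 CPM of Ifit3b, above PON2-deficient male 4 at 9.71 CPM.

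Marker genes of other cell types were summed in the same cerebellum libraries. Microglia markers (9 of 9 genes) ran from 126 to 166 CPM in wild-type mice, against 123 to 160 with the deficiency, and endothelial markers (8 of 8) from 207 to 267 and from 210 to 244 CPM. PON2-deficient female 4 had 148 CPM of microglia and 210 CPM of endothelial markers, and male 2 had 149 and 223 CPM. Blood leukocyte markers (5 of 8 in the table) ran from 2.47 to 4.49 and from 2.59 to 5.11 CPM. Choroid plexus markers (7 of 7) ran from 551 to 2175 CPM in wild-type mice, against 31.5 to 2615 with the deficiency. Among PON2-deficient libraries with high members, male 4 had 31.5, female 5 had 41.0, female 4 had 502, male 2 had 656 and male 3 had 2615 CPM. Among those with low members the values were 508 to 2350 CPM. Meningeal markers (6 of 6) ran from 194 to 252 CPM in wild-type mice, against 130 to 259 with the deficiency, lowest in female 5. The part of these tissues in the members' values was not tested. Between regions, microglia markers were lowest in cerebellum, with a wild-type median of 146 CPM against 405 in cortex and 490 in striatum, the reverse of the order of Ifit3. Meningeal markers followed the order of Ifit3, with wild-type medians of 230 CPM in cerebellum, 122 in cortex and 62.9 in striatum. In the same order of regions, red blood cell markers were at 518, 451 and 307 CPM and blood leukocyte markers at 3.04, 2.78 and 2.27 CPM. Endothelial markers (231, 236 and 245 CPM) and ependymal markers (22.1, 15.0 and 23.5 CPM) had other orders. Choroid plexus markers were also highest in cerebellum, at 1373 CPM against 80.0 in cortex and 52.7 in striatum. The part of these cells and tissues in the differences between regions was not tested either.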

How the data were processed

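RNA of 60 libraries was read as 150 nt pairs. Per the submitters' processing notes, Salmon, edgeR and limma were used by the authors, with genome build, annotation and versions not given in the sources used here. A deposited table holds expected counts per gene. The deposited log2 values are voom log2 CPM. The counts gave them again within 5.33e-14 once the scaled size of each library had been taken from those values. The check thus covers the formula and not the scaling. The deposited voom weights are a precision score per gene and library. Symbols came from GENCODE M21, which matched 20403 of 20423 IDs (99.9%).

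Expected counts were rounded and tested with edgeR 4.0.16 (R 4.3.3): TMM scaling, filterByExpr, group means, quasi-likelihood F test, 2-sided, 1 fit per region (cortex 18972, striatum 18962 and cerebellum 18710 genes) and 1 fit of 60 libraries for regions. P-values were adjusted over all genes tested, threshold 0.05. Standard errors (SE) are the log2 difference over the root of F. CPM (counts per M of TMM-scaled library size) follow the 60-library fit, and log2 CPM of libraries use a prior count of 2. Scripts were tested on simulated data. Alternatives were limma 3.58.1 on the deposited values, DESeq2 1.42.0, other scaling, no filter, the replicate block, 1 fit of 60 libraries and leaving out each library. Members, lists and tests were chosen with earlier results of these data known. All 9 members are named whatever their values. Of the lists, up to 4 called genes per comparison, or otherwise the gene of lowest p, are named, and the 5 genes most like the members. At 26.1 M to 28.1 M counts a library, the lowest member count was 10.4. Equal numbers were not taken to pair wild-type with PON2-deficient libraries (correlations of deviations from -0.14 to 0.50), and whether they do is not settled. Coordinates are GRCm38.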

Additional observations from a re-analysis of the deposited data

Results flagged for a closer look

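Over 9 members and 12 groups of 5 libraries, the highest or lowest library stood apart from the other 4 by Dixon's ratio on log2 CPM in 7 cases. Chance alone picks out about 1 group in 20. In cerebellum, wild-type male 1 was high for Ifit3 (17.3 CPM against 12.1 to 13.3 CPM in the other males) and for Irf7 (4.21 CPM against 2.24 to 2.59 CPM), and wild-type female 1 was high for Isg15 (2.39 CPM). In striatum, wild-type female 5 was low for Isg15 (1.16 CPM), PON2-deficient female 5 was high for Bst2 (5.23 CPM against 2.74 to 3.05 CPM), and PON2-deficient female 4 was low for Usp18 (0.510 CPM). In cortex, PON2-deficient male 3 was low for Oasl2 (2.58 CPM). No group of PON2-deficient cerebellum libraries was picked out. The ratio sets the extreme library against its nearest neighbour, so it can hardly pick out a library where several are high together. For Ifit3, PON2-deficient cerebellum male 2 had 24.8 CPM and the next male 23.7 CPM (ratio 0.0427).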

How the results depend on the processing

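Within regions, no member was called in any genotype or sex comparison under any alternative or left-out library (3510 values, smallest adjusted p 0.131, Usp18 between males and females of cortex without PON2-deficient female 2), and the signs given for these values are descriptions of fitted values. Depth left a lowest member count of 10.4, so counting error adds to the spread of the lowest genes. The count over all genes between genotypes was 6 in cortex, 2 in striatum and 6 in cerebellum. DESeq2 gave 232, 6 and 242, and 1 fit of 60 libraries gave 2, 4 and 13. The deposited voom values gave 16 in cerebellum. Leaving out 1 library gave 1 to 26 in cortex, 2 to 3 in striatum and 1 to 49 in cerebellum. The cause of these moves was not tested.

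With a replicate block, the genotype comparison called 30 genes in cortex, 1 in striatum and no member in any region. Of 10 same-numbered pairs of wild-type and PON2-deficient libraries, 4 in cortex, 5 in striatum and 4 in cerebellum had a correlation above 0.1, and 9 of 30 libraries correlated best with their own number, so the numbers were not taken as pairs. Between regions, 36 of 60 libraries correlated best with their own number, and the rate expected by chance was not computed for either count. The replicate block there left 6 members called between cerebellum and cortex and 6 between cerebellum and striatum, where Rtp4 missed (adjusted p = 0.0505). Without the block, 79.6% and 79.8% of all genes were called in either direction in these contrasts. The shares of all genes called with the block were not counted.

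Between regions, 6 members were called for cerebellum against cortex without each of 60 libraries, and 6 to 8 against striatum. With every library kept, 40.1% and 39.7% of all genes were called higher in cerebellum in these contrasts, and 79.6% and 79.8% in either direction. Striatum against cortex gave 1 to 2 members, with Ifit1 added without wild-type striatum female 4. The fit of all libraries called 57% of all genes there in either direction. Restricting the contrast to wild-type libraries gave 3 for cerebellum against cortex and 0 for striatum against cortex, and restricting it to PON2-deficient libraries gave 0 for the latter, with fewer libraries in each. The spread test in cerebellum called 0 to 2 members with 1 library left out, where 1 to 8 of all genes were called in either direction. They were Ifit3 without wild-type female 5, PON2-deficient female 1, 2 or 3 or PON2-deficient male 4, and Ifit3 and Irf7 without wild-type male 1.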
